A study of Mus musculus with 8 samples.

Results

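Arrays of cells that carried a hairpin against Irf7 (shIRF7, 4 arrays) were compared with arrays of cells that carried a scrambled hairpin in the same lentiviral backbone (scramble, 2 arrays), which makes 6 of the 8 arrays of the series. All groups were mesenchymal stromal cells, the plastic-adherent stroma that can form fat and bone, taken from the inguinal fat pad of male FVB mice aged 12 months, and they carried the lentiviral plasmid backbone pLKO.1. The other 2 arrays, of pLKO.1 with no hairpin, entered neither the comparison nor its test. The hairpin groups therefore share strain, sex, age, tissue and backbone, and differ in the hairpin insert. The labels name 1 shIRF7 group, so effects of the hairpin other than those through Irf7 cannot be told apart from them. The labels do not say whether replicates came from separate cultures, infections or animals, so a p-value here reflects only how these arrays scatter, and that scatter may be technical. Members were the 19572 probe sets with exactly 1 gene symbol among 28846.

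Irf7 is a transcription factor that is activated downstream of sensors of viral nucleic acid and induces type I interferons. Secreted interferon signals through its receptor, the kinases Jak1 and Tyk2, and a complex that holds Stat2 and Irf9, which binds an element rich in GAAA repeats upstream of interferon-stimulated genes. Irf7 is itself such a gene, and many of the others restrict viral replication or present antigen.

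Values were log2 RMA summaries, with array medians of 5.35 to 5.44. Between 31.6% and 36.7% of named probe sets lay above the 95th percentile of the negative control probe sets of the array, which was between 7.93 and 8.72 and is used below as background. Pairs of shIRF7 and scramble arrays differed by an SD over probe sets of 0.558 to 0.740. The scramble pair differed by 0.646, within that range. Among shIRF7 arrays the closest pair was replicates 2 and 3, at 0.323. Replicate 1 stood apart from these, at 0.699 and 0.706. Its nearest array was shIRF7 replicate 4, at 0.544, and scramble replicates 1 and 2 were at 0.580 and 0.558. Because of its distance from replicates 2 and 3, main counts are also given without shIRF7 replicate 1. There, by construction, more probe sets separate: 13.5% of all lay below and 15.7% above both scramble arrays in the other 3 shIRF7 arrays. Negative control medians went with the replicate number, at 4.26 and 4.18 in replicate 1 of scramble and shIRF7 and at 4.56 and 4.56 in replicate 2. For that reason the main results are also given as differences between arrays of the same number. Of the 10 measured mesenchymal stromal markers, 8 exceeded background on all 6 arrays. Thy1 was above it in scramble replicate 1, at 8.97, and measured 7.59 in scramble replicate 2 and 4.87 to 7.60 in shIRF7, while the defining marker Nt5e was near 3 throughout. None of the measured macrophage (11), endothelial (9), lymphocyte (7), adipocyte (6) or pericyte and smooth muscle (7) markers exceeded background on any of the 6 arrays. Of the 4 Schwann and neural markers, Ncam1 exceeded it on all 6 arrays (14.42 to 15.31) and the other 3 on none. Of the 8 epithelial markers, Cdsn exceeded it on both scramble arrays only and the other 7 on none. In bulk RNA, fewer cells of a type and less RNA per cell cannot be told apart.

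Irf7 itself separated the groups, with every shIRF7 array lower. It measured 9.56 and 9.76 in scramble replicates 1 and 2 and 4.42, 5.66, 6.47 and 6.79 in shIRF7 replicates 1 to 4. The groups did not overlap, and replicate 1 was the lowest of the shIRF7 arrays. The means were 9.66 ± 0.14 (SD, n = 2) and 5.83 ± 1.06 (SD, n = 4), a log2 difference of -3.82 (SE 0.62, 95% interval -5.29 to -2.36). Within replicate 1 the difference was -5.14 and within replicate 2 it was -4.10. The adjusted p of limma was 0.223, which missed the threshold of 0.05. By a two-sided exact permutation test p was 0.133, which is the lowest value possible with 15 assignments of 4 against 2 arrays. All 4 shIRF7 values lay below background, and with every value raised to at least background the difference was -1.26. Without shIRF7 replicate 1, which held the lowest of these values, the difference was -3.35, with an adjusted p of 0.0414 in limma. Irf7 missed the threshold without shIRF7 replicate 2, 3 or 4 (adjusted p = 0.641, 0.598 and 0.374 in limma). It also missed it with shIRF7 replicates 2 and 3 averaged (0.622 in limma).

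Of 19572 probe sets, 1 passed the adjusted threshold in limma as lower (0.00511%) and 0 passed as higher (0%). At an unadjusted p under 0.05 there were 756 lower (3.86%) and 710 higher (3.63%), together 7.49%. The probe set that passed was that of Tlr1, a receptor for bacterial lipopeptides that works together with Tlr2. Scramble values were 7.62 and 7.63, and shIRF7 values were 4.65, 4.79, 5.10 and 4.79. Tlr1 fell by 2.79 on the log2 scale (SE 0.18, 95% interval -3.22 to -2.36, adjusted p = 0.0242 in limma). All 6 values lay below background, and with every value raised to at least background the difference was -0.04 (adjusted p = 0.948 in limma), so no fold is given. The 2 arrays with no hairpin measured 5.60 and 6.87, between scramble and shIRF7. The call was lost with a spread shared with the arrays of the empty vector (adjusted p = 0.224 in limma) and without either scramble array (0.232 and 0.311 in limma). It was also lost without shIRF7 replicate 2, 3 or 4 (0.267, 0.0798 and 0.112 in limma), with shIRF7 replicates 2 and 3 averaged (0.121 in limma), and with the replicate number as a block (1.00 in limma). Without shIRF7 replicate 1 the count of calls was 43, with 29 lower and 14 higher.

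With 1 call, consistency over arrays was described by the gap, the log2 distance between the nearest values of the groups where no shIRF7 value overlaps a scramble value. A gap of at least 1 held for 44 probe sets that were lower in shIRF7 (0.225% of those measured) and for 14 that were higher (0.0715%). A gap of at least 2 held for 6 lower (0.0307%) and 0 higher (0%). At any gap above 0 the counts were close, 1487 lower (7.6%) and 1563 higher (7.99%). The excess of lower probe sets was thus at the wide gaps. When shIRF7 replicate 1 was left out, gaps of at least 1 numbered 136 lower and 104 higher, since fewer arrays have to separate. On the lower side Kcnj2 lay just inside a gap of 1, at 1.01, and Jak2 (0.999), Arsj (0.997), Apol9a (0.996) and Tmem120a (0.98) just outside. On the higher side Plppr2 lay just inside, at 1.001, and Galns just outside, at 0.981.

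**Figure D1:**
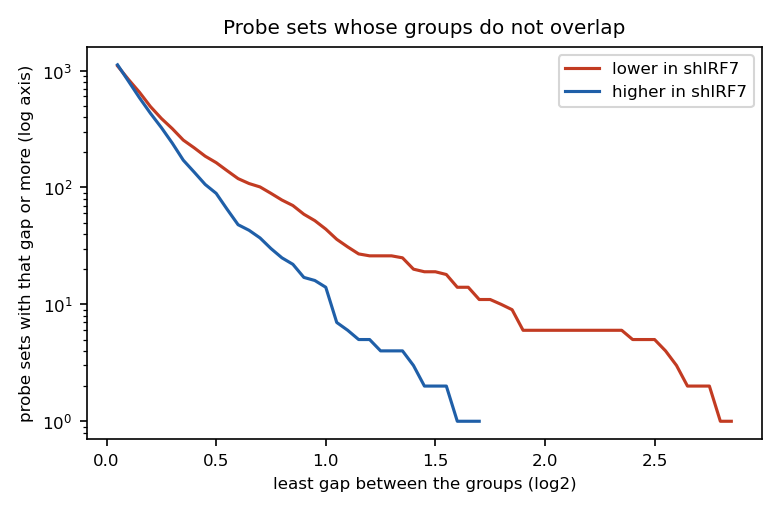
Number of probe sets (log axis) whose 4 shIRF7 values are all at least a given log2 distance (horizontal axis) below, in red, or above, in blue, both scramble values. The lines start together and part at wider gaps, with 44 lower against 14 higher at a gap of 1 and 6 against 0 at a gap of 2.

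Of the 44 lower probe sets, 15 were on the 5 lists of interferon and antigen presentation genes and 29, Irf7 among them, were not. None of the 14 higher ones (0) was on these lists. The lists held only 151 of the 19572 probe sets, so a count of 0 among 14 says little. The 20 named genes with the widest lower gaps, among those above background on both scramble arrays, had gaps of 1.35 to 2.90 and adjusted p-values of 0.056 to 0.536 in limma, so none of them passed. In 8 of the 20 no shIRF7 array was above background, so their differences are those between RMA values, part of which lie at background.

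The promoters of 5 named genes are printed as examples with and without the element bound by interferon regulatory factors. Chosen by that element, they are the lower named genes (those above background in scramble) that held GAAA, any 2 bases and GAAA again, or the reverse complement, in the 250 bases before the RefSeq start, then the named lower gene with the widest gap without it and the named higher gene with the widest gap. RefSeq on GRCm38.p6 places them at chr3:142530086-142530335 (plus strand, Gbp7), chr8:71537473-71537722 (minus strand, Bst2), chr19:34640639-34640888 (plus strand, Ifit1), chr17:35542851-35543100 (plus strand, Cdsn) and chr2:113758649-113758898 (minus strand, Grem1). Each is written 5′ to 3′ toward the start, with the motif in capitals on whichever strand it lies.
Gbp7: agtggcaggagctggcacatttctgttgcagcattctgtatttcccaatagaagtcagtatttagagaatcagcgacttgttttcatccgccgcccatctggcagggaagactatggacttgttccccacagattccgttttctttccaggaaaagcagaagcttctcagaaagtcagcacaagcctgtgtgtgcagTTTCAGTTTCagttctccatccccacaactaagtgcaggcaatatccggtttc
Bst2: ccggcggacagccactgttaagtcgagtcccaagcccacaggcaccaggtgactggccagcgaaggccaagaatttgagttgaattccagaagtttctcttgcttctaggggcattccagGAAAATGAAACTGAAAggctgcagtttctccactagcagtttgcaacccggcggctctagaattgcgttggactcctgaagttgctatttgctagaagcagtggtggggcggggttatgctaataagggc
Ifit1: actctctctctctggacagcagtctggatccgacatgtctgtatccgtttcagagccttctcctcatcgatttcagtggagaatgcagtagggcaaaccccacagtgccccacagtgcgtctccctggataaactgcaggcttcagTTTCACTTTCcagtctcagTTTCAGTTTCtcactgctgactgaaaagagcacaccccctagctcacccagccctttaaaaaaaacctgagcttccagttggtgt
Cdsn: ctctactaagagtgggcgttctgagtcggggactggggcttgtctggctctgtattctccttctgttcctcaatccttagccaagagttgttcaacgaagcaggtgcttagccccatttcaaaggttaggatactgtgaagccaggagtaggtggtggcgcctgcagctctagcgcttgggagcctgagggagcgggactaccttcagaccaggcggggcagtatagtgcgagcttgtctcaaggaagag
Grem1: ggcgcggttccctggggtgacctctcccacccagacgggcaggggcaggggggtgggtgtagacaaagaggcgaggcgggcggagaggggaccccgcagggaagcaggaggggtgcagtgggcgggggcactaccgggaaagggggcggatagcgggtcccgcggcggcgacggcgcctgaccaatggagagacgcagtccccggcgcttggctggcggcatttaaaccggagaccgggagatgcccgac
Gbp7 held 1 match, whose first base was 53 bases before the start. Bst2 held 2 overlapping matches at 130 and 124 bases, and Ifit1 held 2 at 104 and 85 bases. Cdsn and Grem1 held 0. In all, 3 of the 17 lower named genes with a promoter in the table held the motif, and Irf7, Oasl2, Ifih1, Phf11d and Samd9l were among those without it. Of the 14 higher named genes with a promoter, 1 held it, Cenpx.

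Over all 15691 genes with a promoter in the RefSeq table, 3.47% held this motif. Among lower genes with a gap of at least 1 it was in 6 of 36 (16.7%, exact 95% interval 6.37% to 32.8%). It was in 5 of the 11 of these that were on the interferon and antigen lists and in 1 of the 25 that were not (4%). Among higher genes it was in 0 of 13 (exact upper limit 24.7%). Members of the 5 lists as a whole held it in 38 of 122 promoters (31.1%), whatever their values. At any lower gap above 0 the share was 5.65%. The palindrome TTCNNNGAA, the element of Stat dimers, was in 7.76% of all promoters and in 4 of the 36 lower ones (11.1%). A match is a run of letters, not a measured binding site.

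Interferon-stimulated effectors held most of the listed genes with wide gaps. Of 69 measured, 40 lay below both scramble arrays in every shIRF7 array and 0 lay above, against 7.6% and 7.99% of all probe sets. The median difference was -0.95, against 0.01 for all probe sets, and none of the 69 (0) passed the adjusted threshold in limma, while 38 were lower at an unadjusted p under 0.05. Within replicate 1 the median was -1.23 and within replicate 2 it was -0.85. In the other 3 shIRF7 arrays alone, 41 of the effectors (59.4%) lay below and 3 (4.35%) above, with a median of -0.68. Of all probe sets 13.5% and 15.7% did so. Only 36 of the 69 were above background on every array of their higher group. The list was written with earlier results of these data known, so its count is a description.

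Oasl2, an oligoadenylate synthetase-like antiviral protein, measured 12.41 and 12.52 in scramble and 7.38, 9.08, 8.64 and 10.64 in shIRF7 replicates 1 to 4. The difference was -3.53 (adjusted p = 0.372 in limma). All shIRF7 arrays were below both scramble arrays, with replicate 4 closest to them. Usp18, which removes the ubiquitin-like Isg15 from proteins and dampens interferon receptor signalling, measured 11.31 and 12.09 against 7.24, 7.40, 7.24 and 9.73 (difference -3.80, adjusted p = 0.283 in limma). Here too replicate 4 was nearest to scramble, and replicates 1 to 3 were close together but below background. With values raised to background the difference of Usp18 was -2.96.

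Ifit1, a protein that binds viral RNA with an unfinished cap, measured 10.13 and 9.81 in scramble and 5.27, 6.18, 6.42 and 8.44 in shIRF7, a difference of -3.39 (adjusted p = 0.404 in limma). Bst2, or tetherin, which holds budding virions at the cell surface, measured 9.21 and 9.62 against 6.76, 6.67, 6.52 and 7.84 (difference -2.47, adjusted p = 0.223 in limma). Neither gene overlapped between groups. Bst2 was below background in all 4 shIRF7 arrays, and Ifit1 in all of them but replicate 4. With values raised to background the differences were -1.55 for Ifit1 and -1.025 for Bst2. Phf11d measured 9.09 and 9.80 against 5.64, 6.83, 6.52 and 7.56, with all 4 shIRF7 values below background. Samd9l, a cytoplasmic restriction factor, stayed well above background, with 12.69 and 13.06 against 9.35, 11.33, 11.24 and 10.62. The RNA-editing enzyme Adar differed less, with 11.08 and 11.45 against 9.49, 9.81, 9.92 and 9.97 (difference -1.47, gap 1.11).

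Ifi27l2a and Trim30a had wider gaps (2.57 and 2.37) but not all of their scramble values were above background, and they are named after their values were seen. Ifi27l2a measured 7.57 and 8.68 in scramble and 3.93, 4.46, 4.998 and 4.43 in shIRF7. Trim30a measured 8.21 and 9.64 against 3.43, 4.30, 4.93 and 5.84. Other effectors did not separate the groups. Ifit2 differed by -0.01, Ifitm3, an abundant membrane protein that blocks viral entry, by -0.07, and Ifit3 by -1.52 with overlapping groups. Oas1a with Oas1g, and Ifit3 with Ifit3b, are near-identical copies, so how their probe sets divide the signal is uncertain.

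Interferon-inducible GTPases are enzymes that act against intracellular pathogens. Of 13 measured, 8 (61.5%) lay below both scramble arrays in every shIRF7 array and 0 above, against 7.6% and 7.99% of all probe sets. Their median was -1.10. These counts were again 8 and 0 without shIRF7 replicate 1. Only 4 of the 13 were above background on every array of their higher group, and 7 were above it on no array. Gvin1 measured 10.21 and 10.25 in scramble and 7.59, 4.88, 3.90 and 6.61 in shIRF7 (difference -4.49, adjusted p = 0.345 in limma). Its gap of 2.62 was the third widest among the lower named genes, and its shIRF7 arrays were all below background and spread over a wide range. With values raised to background the difference was -1.84. Gvin1 has near-identical copies, so its signal may be shared with them. Gbp7 measured 10.18 and 10.49 against 5.92, 8.33, 8.56 and 8.59 (difference -2.48, adjusted p = 0.536 in limma), with replicate 1 far below the other shIRF7 arrays. Gbp3 measured 8.87 and 9.40 against 5.25, 6.48, 6.24 and 7.99, with every shIRF7 value below background. Irgm1 measured 11.45 and 11.24 against 9.90, 9.85, 10.23 and 11.02.

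Sensors and their adaptors differed less as a list, with 5 of 21 below (23.8%), 1 above (4.76%) and a median of -0.11. Of all probe sets 7.6% lay below and 7.99% above. Without shIRF7 replicate 1 the counts were 6 (28.6%) and 5 (23.8%), against 13.5% and 15.7% of all. Ifih1, the sensor of long double-stranded RNA, measured 9.99 and 9.95 in scramble and 7.38, 7.60, 7.91 and 8.38 in shIRF7 (difference -2.15, SD 0.031 in scramble and 0.43 in shIRF7, adjusted p = 0.223 in limma). Ddx58, which senses RNA with a phosphorylated end, measured 11.73 and 11.71 against 10.24, 10.53, 10.48 and 10.96. The groups were apart for both genes. Mavs, the mitochondrial adaptor that both of these sensors use, was the only member of the 5 lists above both scramble arrays in all 4 shIRF7 arrays. It measured 11.66 and 11.79 against 12.16, 12.05, 12.01 and 12.34, with a gap of 0.22.

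Of 26 interferon factors, receptors and Stats, 4 (15.4%) lay below and 0 above, with a median of -0.13. Of all probe sets 7.6% lay below and 7.99% above. Jak2, a receptor-associated kinase, measured 13.43 and 13.17 in scramble and 12.17, 11.95, 11.71 and 11.80 in shIRF7 (difference -1.39, adjusted p = 0.223 in limma). Jak1, which serves the type I interferon receptor, measured 11.17 and 11.38 against 9.91, 10.20, 10.12 and 9.57 (difference -1.32, adjusted p = 0.225 in limma). For both kinases the 4 shIRF7 arrays lay close together and apart from scramble. Irf9, the DNA-binding partner of Stat2, measured 9.80 and 10.14 against 7.59, 8.83, 8.77 and 9.29. Stat2 overlapped, and its difference of -0.86 rested mostly on replicate 1, at 8.10. Irf1 and Irf3, the related factors, differed by -0.13 and 0.13.

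In antigen presentation, 7 of 22 (31.8%) lay below and 0 above, against 7.6% and 7.99% of all probe sets, with a median of -0.18. Without shIRF7 replicate 1 it was 7 (31.8%) and 4 (18.2%), against 13.5% and 15.7% of all. Tap1, a subunit of the peptide transporter, measured 11.17 and 11.16 in scramble and 8.80, 9.29, 10.08 and 9.83 in shIRF7 (difference -1.67, adjusted p = 0.345 in limma). H2-K1, a class I heavy chain, measured 12.83 and 13.36 against 11.68, 12.73, 12.57 and 12.77, a gap of 0.06. Its partner B2m overlapped between groups (difference -0.21). The list mean in replicate 1 was 0.91 below the scramble mean, and those of replicates 2 to 4 were 0.17 to 0.20 below. H2 genes have near-identical copies, so the assignment of their signal is uncertain.

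**Figure D2:**
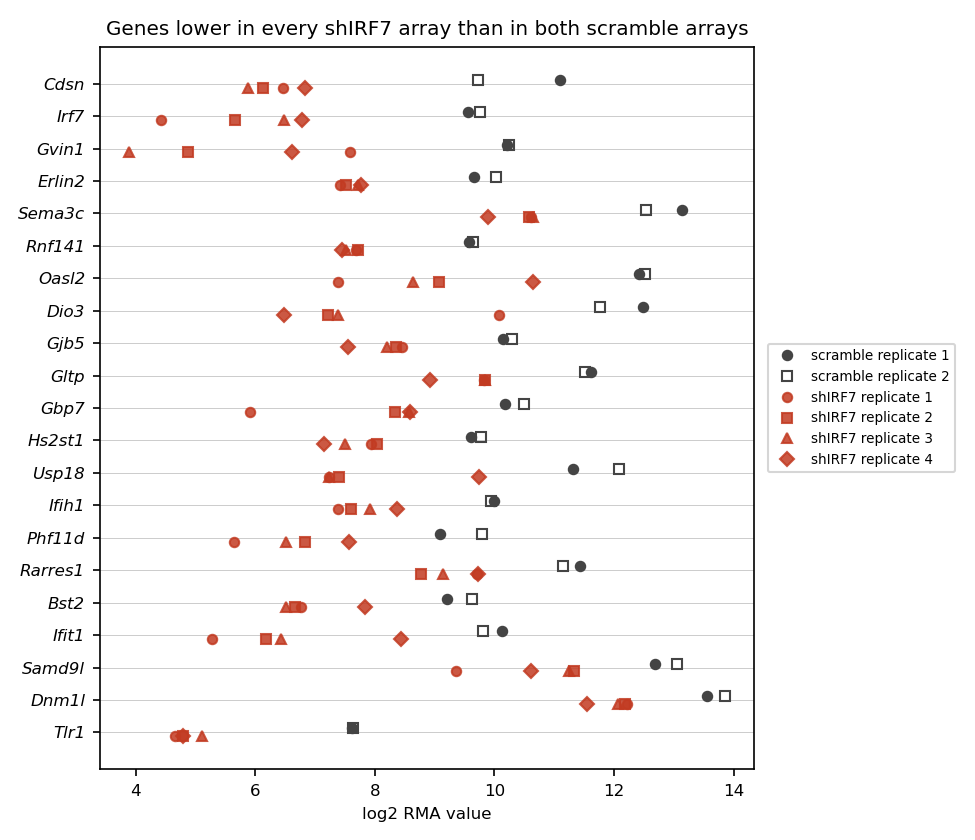
Log2 RMA value (horizontal axis) of each of the 20 named genes with the widest lower gap, and of Tlr1, on the 2 scramble arrays (black) and the 4 shIRF7 arrays (red). No red point reaches a black point of the same gene, and the red points spread widely for Gvin1, Oasl2 and Dio3 but closely for Erlin2 and Rnf141.

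Many listed interferon genes also had the same lowest and highest shIRF7 array. Replicate 1 was lowest and replicate 4 highest of the 4 in 52 of the 151 measured members of the 5 lists (34.4%), and in 8.53% of all probe sets. Of the 151, 57 were above background on no array. Irf7 itself had the same lowest and highest array, but all 4 of its shIRF7 values lay below background, so their order is uncertain. A relation between the level of Irf7 and that of the lists was not tested. Means of the effector list relative to scramble were -1.64, -1.04, -1.05 and -0.70 in shIRF7 replicates 1 to 4, and those of the GTPase list were -2.07, -1.36, -1.45 and -0.79. Replicate 4 was thus nearest to scramble in both lists, and also in the sensor and antigen lists. In the list of interferon factors, receptors and Stats it was replicate 2 (-0.09, against -0.19 in replicate 4). Over all 5 lists, 64 of 151 (42.4%) lay below both scramble arrays in every shIRF7 array and 1 (0.66%) lay above. Without shIRF7 replicate 1 the counts were 66 (43.7%) and 14 (9.27%), against 13.5% and 15.7% of all probe sets.

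**Figure D3:**
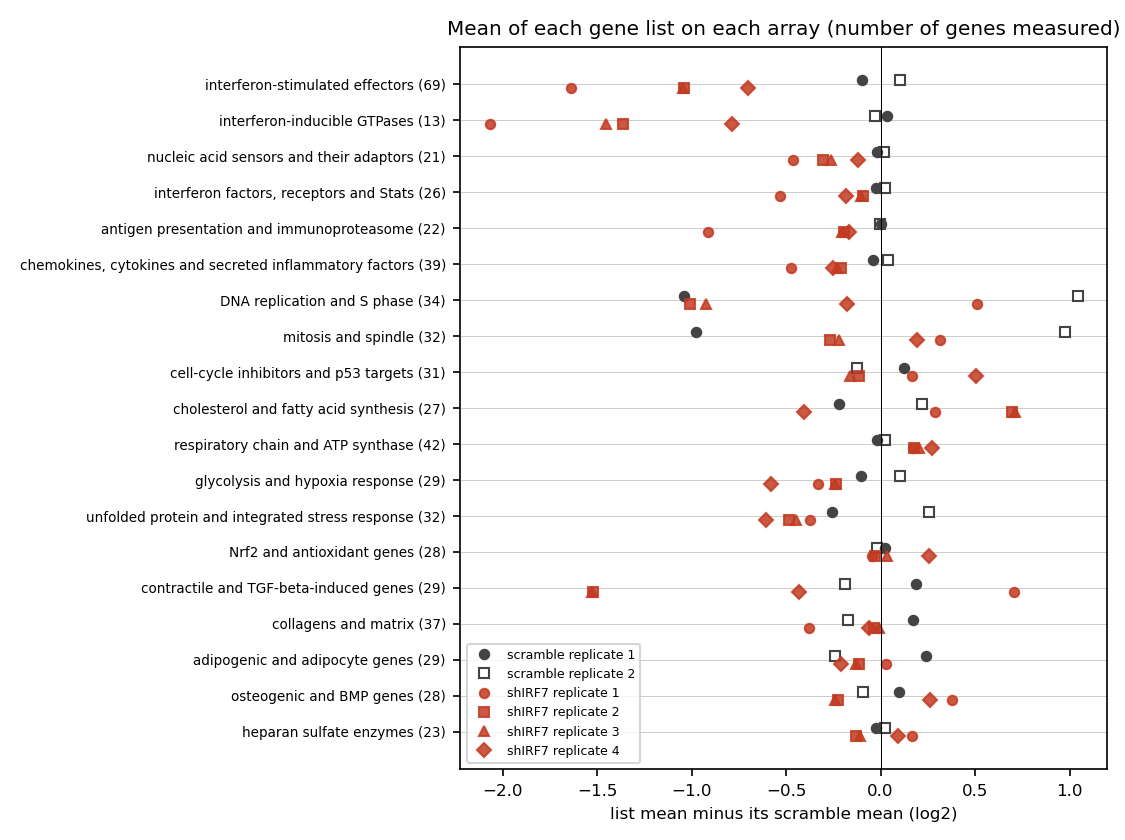
Mean over the measured genes of each list on each array, minus the mean of the 2 scramble arrays (log2, horizontal axis), with scramble in black and shIRF7 in red. Effectors and GTPases lie below scramble on all 4 shIRF7 arrays, while the scramble arrays themselves lie about 2 apart in the S phase and mitosis lists.

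Genes outside the interferon lists had gaps as wide. Cdsn, an adhesion protein of the cornified epidermis, had the widest gap of the named genes (2.90). It measured 11.09 and 9.72 in scramble and 6.47, 6.13, 5.88 and 6.83 in shIRF7, a difference of -4.08 (SE 0.42, adjusted p = 0.101 in limma). The scramble arrays were themselves more than 1 apart, and all shIRF7 values were below background. The other 7 epithelial markers did not exceed background on any of the 6 arrays. With values raised to background the difference was -2.01.

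Rnf141, a RING finger protein, and Erlin2, an endoplasmic reticulum protein that helps to degrade membrane receptors, had the smallest adjusted p-values after Tlr1. Rnf141 measured 9.57 and 9.65 in scramble and 7.69, 7.73, 7.52 and 7.45 in shIRF7 (difference -2.01, SE 0.17, adjusted p = 0.056 in limma). Erlin2 measured 9.66 and 10.03 against 7.42, 7.52, 7.71 and 7.77 (difference -2.24, SE 0.19, adjusted p = 0.056 in limma). The 4 shIRF7 values of each lay close together and below background. Raised to background, the differences were -1.22 and -1.45.

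Other lower genes kept a shIRF7 signal above background. Sema3c, a secreted guidance factor, measured 13.13 and 12.53 in scramble and 10.62, 10.58, 10.65 and 9.89 in shIRF7, a difference of -2.39 (adjusted p = 0.196 in limma). Gltp, which carries glycolipids between membranes, measured 11.61 and 11.51 against 9.83, 9.85, 9.84 and 8.92. In both, replicates 1 to 3 were nearly equal and replicate 4 was lower, whereas it was the highest of the 4 for Oasl2, Usp18 and Ifit1. Dnm1l, the dynamin-related enzyme of mitochondrial fission, measured 13.56 and 13.85 against 12.21, 12.19, 12.07 and 11.55 (difference -1.70, adjusted p = 0.223 in limma). Rarres1 measured 11.43 and 11.15 against 9.70, 8.77, 9.13 and 9.72.

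Hs2st1, which sulfates heparan sulfate chains, measured 9.61 and 9.77 in scramble and 7.93, 8.03, 7.50 and 7.15 in shIRF7 (difference -2.04, adjusted p = 0.223 in limma). All 4 shIRF7 values of Hs2st1 were below background, and with values raised to background the difference was -1.30. No other member of the 23 heparan sulfate enzymes had a gap of 1 in either direction. In all, 2 (8.7%) lay below and 3 (13%) above, against 7.6% and 7.99% of all probe sets, with a median of 0.00. Dio3, which inactivates thyroid hormone, measured 12.48 and 11.77 against 10.07, 7.22, 7.39 and 6.48 (difference -4.33, adjusted p = 0.341 in limma). Gjb5, a connexin of gap junctions, measured 10.15 and 10.30 against 8.46, 8.35, 8.21 and 7.55. For Dio3 1 array with no hairpin, at 9.14, lay below the highest shIRF7 value. For Gjb5 1 such array, at 7.26, lay below all 4 shIRF7 values. The other 18 of the 20 lay below both arrays with no hairpin as well, Rarres1 by only 0.07.

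Genes higher in shIRF7 had narrower gaps than lower ones. The 15 named genes had gaps of 0.78 to 1.57, differences of 1.08 to 2.58 and adjusted p-values of 0.223 to 0.297 in limma, so none passed. Grem1, a secreted antagonist of bone morphogenetic proteins, had the widest gap among them. It measured 9.74 and 8.63 in scramble and 11.92, 11.53, 11.32 and 12.32 in shIRF7, a difference of 2.58 (SE 0.39, adjusted p = 0.223 in limma). Every shIRF7 array was above both scramble arrays, within replicate 1 by 2.18 and within replicate 2 by 2.90. Of the 28 osteogenic and bone morphogenetic protein genes, 1 (3.57%) lay below, 2 (7.14%) above and the median was 0.03. Of all probe sets 7.6% lay below and 7.99% above.

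Pqlc3 measured 11.15 and 10.38 in scramble and 12.52, 13.11, 12.94 and 12.75 in shIRF7 (difference 2.06). Rfng, a glycosyltransferase that modifies Notch, measured 7.53 and 8.68 against 9.92, 10.40, 10.33 and 9.93 (difference 2.04). Neither group pair overlapped, but both arrays with no hairpin (9.95 and 10.08) lay within the Rfng values of shIRF7. Nkiras2, a Ras-like inhibitor of NF-kappaB signalling, measured 11.39 and 11.37 against 12.52, 12.67, 12.43 and 12.89 (difference 1.25). Tbc1d7, a subunit of the tuberous sclerosis complex, measured 8.34 and 8.10 against 9.39, 10.12, 9.98 and 9.57. Atp6ap2, an accessory protein of the vacuolar proton pump, measured 10.96 and 10.77 against 11.92, 12.24, 12.25 and 12.22. Both separated the groups.

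Cenpx, a centromere protein, had the tightest shIRF7 values of the set, 14.41, 14.52, 14.41 and 14.49 against 13.22 and 13.54. P4ha3, a catalytic subunit of the prolyl hydroxylase of collagen, measured 13.09 and 13.47 in scramble and 14.25, 14.40, 14.48 and 14.75 in shIRF7 (difference 1.19). The related subunit P4ha2 was on the lower side, at 14.01 and 14.11 against 12.98, 11.92, 12.18 and 12.42 (difference -1.68, adjusted p = 0.246 in limma). The arrays with no hairpin measured 12.37 and 13.27 for P4ha2, the first of them within the shIRF7 values. Smarcd1, a subunit of the SWI/SNF remodelling complex, measured 8.64 and 9.09 against 10.06, 10.14, 9.89 and 10.17. Its values in the arrays with no hairpin, 9.84 and 10.26, lay around the shIRF7 ones. In all, 9 of the 15 higher genes also lay above both of those arrays and 6 overlapped with at least 1 of them.

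**Figure D4:**
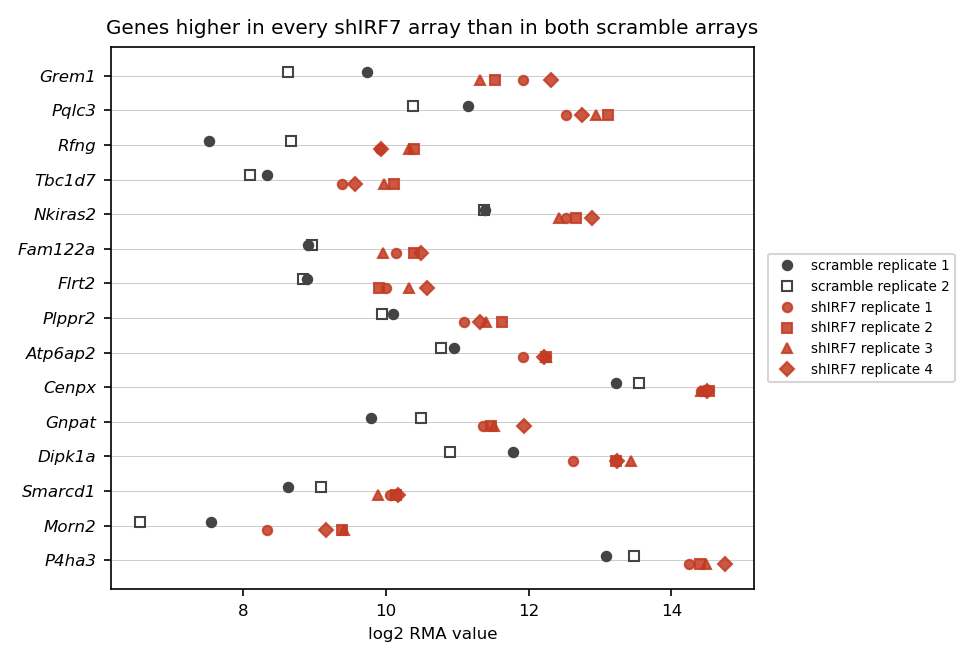
Log2 RMA value (horizontal axis) of each of the 15 named genes with the widest higher gap on the 2 scramble arrays (black) and the 4 shIRF7 arrays (red). All red points lie above the black points of the same gene, with gaps from 0.78 for P4ha3 to 1.57 for Grem1.

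A further 6 genes, Nrep, Uckl1, Fndc1, Angptl1, Baiap2l1 and Rgs2, were higher by a gap of at least 1 with every scramble value below background, and they are named after their values were seen. In 4 of them, Uckl1, Fndc1, Angptl1 and Baiap2l1, every shIRF7 value was below background too. Nrep measured 5.14 and 5.73 in scramble and 7.46, 8.76, 8.99 and 10.32 in shIRF7 (difference 3.45, adjusted p = 0.318 in limma). Rgs2, which shortens signalling of G proteins, measured 5.79 and 5.96 against 6.97, 10.98, 11.50 and 11.39 (difference 4.33, adjusted p = 0.501 in limma). Replicate 1 of Rgs2 was thus far from the other shIRF7 arrays. Uckl1 was even, at 7.76, 7.72, 7.67 and 8.17 against 5.79 and 6.24.

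Among other functions, respiratory chain subunits were the list with the largest share of members above scramble. Of 42 measured, 15 (35.7%) lay above both scramble arrays in every shIRF7 array and 0 below, against 7.99% and 7.6% of all probe sets. The median was 0.25, with medians of 0.19 within each of replicates 1 and 2. Without shIRF7 replicate 1 it was 21 above (50%) and 0 below, against 15.7% and 13.5% of all probe sets. The differences were small beside those of interferon genes. Ndufa10, of complex I, measured 12.12 and 12.40 in scramble and 12.92, 12.91, 13.02 and 13.32 in shIRF7 (difference 0.79, gap 0.51, adjusted p = 0.423 in limma). Sdhb, of complex II, measured 11.13 and 10.97 against 11.32, 11.38, 11.35 and 11.53, and none of the 42 had a gap of 1 (0).

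Of 32 stress response genes (unfolded protein and integrated stress pathways), 9 (28.1%) lay below and 0 above, with a median of -0.35. Of all probe sets 7.6% lay below and 7.99% above. Gars, which charges the glycine transfer RNA, measured 14.74 and 15.25 in scramble and 13.80, 13.76, 13.62 and 12.90 in shIRF7 (difference -1.47, gap 0.94). The amino acid transporter Slc7a5 and asparagine synthetase Asns had gaps of 0.09 and 0.06, so their groups barely separated. This median differed with the replicate number, at -0.09 for replicate 1 and -0.92 for replicate 2. Leaving out shIRF7 replicate 1, 15 (46.9%) lay below and 0 above, against 13.5% and 15.7% of all probe sets.

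DNA replication and S phase genes (34 measured) and mitosis genes (32) had 0 members below and 0 above, against 7.6% and 7.99% of all probe sets. Within replicate 1 their medians were 1.66 and 1.33, and within replicate 2 they were -1.999 and -1.29. The direction thus turned with the replicate number, and the scramble arrays themselves were apart. Uhrf1, a cofactor of DNA methylation, measured 9.54 and 12.56 in scramble and 11.40, 9.65, 9.69 and 9.78 in shIRF7. Whether growth state plays a part in the other differences was not tested. The contractile and TGF-beta-induced genes turned likewise, with medians of 0.38 and -1.35. Of their 29 measured members 2 (6.9%) lay below, against 7.6% of all probe sets. Without shIRF7 replicate 1 it was 16 (55.2%), against 13.5% of all.

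**Figure D5:**
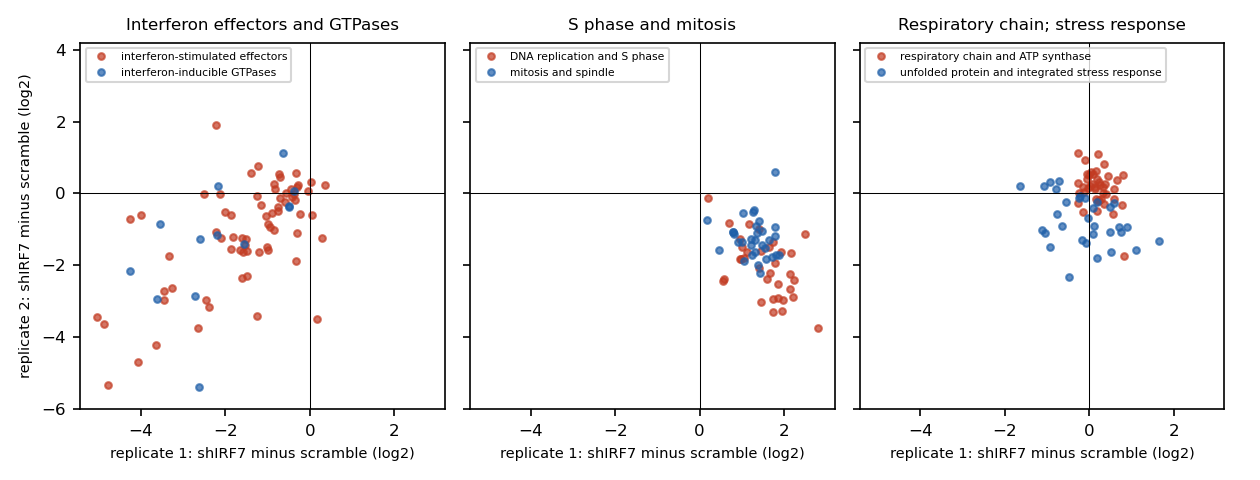
Difference of shIRF7 minus scramble (log2) within replicate 1 (horizontal axis) and within replicate 2 (vertical axis), 1 point per gene of the lists named in each panel. Interferon genes gather at lower left, S phase and mitosis genes at lower right, and respiratory chain genes near the centre, with list medians of 0.19 on both axes.

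Matrix and differentiation lists had few members apart from scramble, at shares not far from those of all probe sets (7.6% below, 7.99% above). Of 37 collagens and matrix genes, 4 (10.8%) lay below and 1 (2.7%) above, with a median of -0.15. Col1a1, the main fibrillar collagen chain, measured 16.52 and 16.29 in scramble and 15.80, 15.70, 15.65 and 15.56 in shIRF7 (difference -0.73, gap 0.48). Adipogenic genes had 3 of 29 below (10.3%) and 3 above (10.3%), with a median of 0.08. Chemokines, cytokines and secreted inflammatory factors had 5 of 39 below (12.8%) and 2 above (5.13%), with a median of -0.12. Without shIRF7 replicate 1 their counts were 10 (25.6%) and 5 (12.8%), against 13.5% and 15.7% of all probe sets. Ccl2, which recruits monocytes, measured 15.93 and 16.35 against 15.74, 13.86, 13.77 and 13.39, so replicate 1 lay 0.19 below scramble replicate 1 and the rest were lower. With no hairpin it measured 14.64 and 16.03, the first within the shIRF7 values. Ptx3, a secreted pattern-recognition protein, measured 11.92 and 13.09 against 10.88, 8.57, 8.65 and 8.80 (difference -3.28, gap 1.04). Its values with no hairpin were 9.13 and 12.41, the first again within the shIRF7 values.

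Cell-cycle inhibitors and p53 targets had 3 of 31 below (9.68%) and 2 above (6.45%), with a median of 0.11. Of all probe sets 7.6% lay below and 7.99% above. Without shIRF7 replicate 1 the counts were 4 (12.9%) and 10 (32.3%), against 13.5% and 15.7% of all. Nrf2 and antioxidant genes had 3 of 28 below (10.7%) and 0 above. Cholesterol and fatty acid synthesis had 1 of 27 below (3.7%) and 2 above (7.41%), and glycolysis and hypoxia response had 4 of 29 below (13.8%) and 1 above (3.45%). The medians of these 3 lists were 0.04, 0.31 and -0.22. None of these genes passed the adjusted threshold in limma (0 of each list), and at an unadjusted p under 0.05 at most 4 of a list were lower and at most 2 higher.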

How the data were processed

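Total RNA, biotin-labelled, was hybridised to Affymetrix arrays. Per the submitters' processing notes, the authors ran RMA (Affymetrix Expression Console, version 1.4.1.46), and they deposited 1 log2 value per probe set and array. No genome build for the probe sets is given in the sources. Symbols came from the platform annotation: 19572 probe sets had 1 symbol, 0 had several and 9274 had none, and all 19572 matched the RefSeq table. The probe set with the highest mean is named for the 55 genes with several. limma 3.58.1 in R 4.3.3 (lmFit, eBayes) was fitted to the 6 arrays with 4 residual and 2.96 prior degrees of freedom, and Benjamini-Hochberg adjustment ran over all 19572 probe sets with a threshold of 0.05. The fit was tested on simulated data. Exact tests and binomial intervals used scipy 1.17.1 in Python 3.11.15. The number of arrays limits the precision.

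Lists (19 of functions, 8 of cell markers) held 711 genes: 641 were found by symbol, 6 by a former symbol, and 64 were not found. The members and lists were chosen with earlier results of these data known. Named were Irf7, the 20 lower and 15 higher genes with the widest gap, genes past the threshold, and up to 4 list members by gap, or otherwise up to 2 by difference. Rankings left out small RNAs, predicted genes, clones, immune receptor segments, and vomeronasal and olfactory receptors, and also genes whose higher group was not above the 95th percentile of the 5222 negative control probe sets on each of its arrays. Genes named beyond this rule as examples within a list (such as Ifit2, Ifit3, Ifitm3, Adar, Stat2, B2m, Irf1, Irf3 and Ptx3) were chosen after their values were seen. No array column was left unused (0 columns). Alternatives changed 1 choice at a time: the shared spread, a filter on dim probe sets, trend and robust eBayes, cyclic loess, a floor at background, 1 probe set per gene, the replicate number as a block, shIRF7 replicates 2 and 3 averaged, and each array left out. List counts without shIRF7 replicate 1 were added after the data were seen.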

Additional observations from a re-analysis of the deposited data

Results flagged for a closer look

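Among 36 named genes and 27 list means, 8 had 1 of the 4 shIRF7 arrays far from the other 3, by the share of the group's range that lies between that array and its nearest neighbour (Dixon's test at the 95% level). Chance marks about 1 group in 20 in this way. Replicate 4 was the low array for Sema3c (share 0.906) and Gltp (0.980), and the high array for Usp18 (0.933). Replicate 1 was the low array for Gbp7 (0.904) and Atp6ap2 (0.891). Replicate 1 was also the low array in the means of antigen presentation and immunoproteasome (0.953), chemokines, cytokines and secreted inflammatory factors (0.835), and collagens and matrix (0.859).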

How the results depend on the processing

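The number of calls, 1 in limma, was 0 with the filter on dim probe sets, 0 with shIRF7 replicates 2 and 3 averaged, 3 (all lower) with cyclic loess, and 242 (153 lower, 89 higher) with values raised to background, where the cause was not tested. There the floor replaced every value of the 12063 of 19572 probe sets that were above background on no array. Differences of Sema3c and Grem1 were unchanged by it, yet their adjusted p went from 0.196 and 0.223 to 6.03e-10 and 9.75e-12 in limma. Leaving out 1 array gave 0 to 43 calls (0 to 29 lower, 0 to 14 higher). Gaps of at least 1 numbered 26 lower and 7 higher with values raised to background, and 47 to 242 lower and 14 to 176 higher with 1 array left out, where fewer arrays have to separate. Irf7 was -1.26 with values raised to background and -4.14 to -3.35 with 1 array left out. For Irf7 the floor replaces all 4 shIRF7 values and with them their spread. Adjusted p-values with the floor, that of Irf7 included, are therefore not evidence. The share of lower promoters with the motif was 5.65% at any gap above 0. Without scramble replicate 2, Uhrf1 (0.59), Mcm5 (0.47) and Anln (0.33) turned to higher, and with 1 array left out they ranged from -2.43 to 0.59, -2.23 to 0.47 and -1.64 to 0.33. The labels do not say that a replicate number marks a shared culture or day. Deviations of same-numbered arrays correlated at -0.224 and -0.161, but the 2 scramble arrays deviate as mirror images by construction, so this check is weak, and negative control medians did go with the number. With the replicate block 0 probe sets passed (0 lower) and Irf7 was -4.62 (adjusted p = 1.00 in limma). Of 1175 values of 84 named genes under alternatives, 1106 kept direction and side of the threshold, 9 lost a call, 57 gained one and 3 reversed. Of 319 list medians, 277 moved by less than the spread between arrays and 42 by more. Values below the negative controls limit what can be said of the 8 lower named genes with no shIRF7 array above them.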

Other observations

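The 2 arrays with no hairpin, outside the comparison, were set beside the genes with wide gaps. Of the 44 probe sets lower by a gap of at least 1, 38 also lay below both of these arrays in every shIRF7 array, 27 of them by at least 1. Of the 14 higher, 9 also lay above both, 2 of them by at least 1. Nrep and Rgs2 were among those that did not, with 8.03 and 6.35 for Nrep and 9.39 and 7.66 for Rgs2. Hs2st1 (10.05 and 9.89) and Rnf141 (9.40 and 9.59) lay near their scramble values. Dcn, a small matrix proteoglycan, varied widely within groups. It measured 10.10 and 8.05 in scramble, 7.62, 14.01, 14.06 and 13.68 in shIRF7, and 15.84 and 10.47 with no hairpin. In shIRF7 replicate 1 it lay below both scramble arrays, and in the other shIRF7 arrays above both.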
